A study of Capra hircus with 3 samples.

Results

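Small RNA tags of 26 to 31 nt whose first base is U were taken from the skin small RNA of cashmere goats. A tag is 1 distinct read sequence, and the members were chosen by length and first base alone. They comprised 415981 distinct tags of the 4043974 tags in the 3 libraries, beside 1102789 tags of the same lengths that start with A, C or G. The anagen library held 116116 U-first tags among 1308819, the catagen library 121697 among 1324013 and the telogen library 236276 among 2083543.

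The skin came from adult Shanbei White cashmere goats at anagen, catagen and telogen, the stages of growth, regression and rest of the hair cycle. Each stage had 1 library, made from the mixed RNA of 10 goats, so that no spread between animals could be measured and every difference given here is one between libraries. The labels give no treatment or genotype. RNA of 18 to 30 nt was cut from a gel before sequencing, so that 31 nt lies beyond the upper end of the cut. The deposited counts were whole reads without normalisation, and the libraries of anagen, catagen and telogen had a depth of 15997828, 18111912 and 27016012 clean reads. Levels are given in RPM, the number of reads per 1000000 clean reads. Intervals are 95% intervals (exact Poisson for levels, Clopper-Pearson for ratios of 2 libraries, Wilson for shares), and they cover counting error only, since reads copied by PCR were not marked as such. In RNA of whole skin, fewer cells of a type and less RNA per cell cannot be told apart.

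PIWI-interacting RNAs (piRNAs) are small RNAs, longer than miRNAs, that guide PIWI proteins to the transcripts of transposons, chiefly in the germ line. Primary piRNAs mostly start with U. In the ping-pong cycle the partner piRNA is cut opposite such a piRNA, so that the 5′ ends of both overlap by 10 bases and the partner carries A at position 10. Fragments of tRNA, rRNA and other abundant RNAs can have the same lengths, and length with a first base does not define a piRNA. The members are called U-first tags here, since no majority of U at these lengths was found. A at position 10 marks the partner, so its share among U-first tags cannot decide whether they are piRNAs.

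Abundant members are shown first, because they weigh heavily in values that count reads. Tags of 26 to 31 nt that share their first 18 bases were joined into a 5′ family, and each family is represented by its most-read tag. Families 1 to 7 were those at ranks 4 to 10 by mean level over the 3 libraries. T stands for U, and capitals mark the first base and the base at position 10, counted from the 5′ end.
Family 1: TcgtacgacTcttagcggtggatcactcgg
Family 2: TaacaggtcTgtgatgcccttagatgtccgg
Family 3: TctgatcgtTttttcactgacccggt
Family 4: TgagaggtgTagaataagtgggaggc
Family 5: TtggaacaaTgtaggtaagggaagtcg
Family 6: TaggtgaacCtgcggaaggatcatta
Family 7: TgttggaacAatgtaggtaagggaagtcg

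Of the 7 tags shown, 5 carried T at position 10 and 1 carried A. The 10 most-read families together held 36.5%, 37.0% and 20.0% of the U-first reads of anagen, catagen and telogen. The 100 most-read single tags held 47.0%, 47.8% and 33.9% of the U-first reads, respectively. At the other end, anagen had 95852 U-first tags that were read once (82.5%), catagen 100922 (82.9%) and telogen 194625 (82.4%). Tags with 10 or more reads numbered 4263, 4531 and 6676 in the same order, and they held 82.6%, 83.6% and 80.4% of the reads. The population was thus a small number of very abundant sequences over a large number of sequences seen a single time.

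Few U-first tags recurred between the libraries, and few tags with another first base did. Of the 415981 tags, 373475 (89.8%) were found in 1 library, 26904 in 2 and 15602 (3.75%) in all 3. With another first base, 88.2% of the tags were found in 1 library and 4.60% in all 3. The 15602 shared tags made up 13.4% of the U-first tags of anagen, 12.8% of those of catagen and 6.60% of those of telogen, but 85.7%, 86.2% and 81.8% of their reads. With another first base, tags found in all 3 libraries held 84.4%, 83.7% and 85.4% of the reads.

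The level of U-first reads of 26 to 31 nt, in RPM, was nearly flat over the 3 stages. Anagen had 841078 such reads, catagen 934406 and telogen 1531790, which is 52575 RPM (95% interval 52462 to 52687), 51591 (51486 to 51695) and 56699 (56610 to 56789), respectively. Telogen was the highest and catagen the lowest. As a log2 ratio, anagen over catagen gave 0.03 (0.02 to 0.03), anagen over telogen -0.11 (-0.113 to -0.105) and catagen over telogen -0.14 (-0.14 to -0.13). These differences exceeded the counting error, but without a second library of any stage they could not be set against the spread between samples.

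The flat level covered a different course of the 10 most-read families as a group and the rest. The 10 most-read families held a smaller share of the U-first reads in telogen than in the other libraries, as given above. Without them the U-first level of the 3 libraries was 33389, 32485 and 45387 RPM, and the log2 ratio to telogen was -0.44 for anagen and -0.48 for catagen. The 7 families shown did not have the course of the 10, since together they had 5651, 4083 and 7138 RPM (10.7%, 7.91% and 12.6% of the U-first reads) and were highest in telogen.

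Between anagen and telogen, reads of the same length with another first base differed more than U-first reads. Of the clean reads of anagen, catagen and telogen, 18.7%, 18.6% and 23.1% were 26 to 31 nt long. Against all reads of that window, U-first reads made up 28.1% in anagen and 27.8% in catagen but 24.6% in telogen, so that the direction of the difference between telogen and the other libraries depends on the denominator. With another first base, the log2 ratio of anagen over telogen was -0.21 for A, -0.44 for C and -0.48 for G. Longer reads were 3.30%, 2.39% and 0.908% of each library in the same order, and the part of this difference in length in the levels above was not tested.

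U was not the first base of most tags at these lengths. Over distinct tags its share of the window was 25.9% in anagen, 25.4% in catagen and 28.5% in telogen. A was first in 27.9%, 27.2% and 26.3% of the distinct tags, so that U came after A in anagen and catagen and before it in telogen. For comparison, at 22 nt, the length of most miRNAs, U was the first base of 29.4%, 28.7% and 29.4% of the distinct tags. Over reads its share was 85.9%, 84.1% and 79.4% at 22 nt, against 28.1%, 27.8% and 24.6% at 26 to 31 nt.

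The share of U was highest at the longest length when reads were counted and varied little when tags were counted. Over reads it was lowest at 27 nt in anagen (19.9%) and catagen (20.8%) and at 28 nt in telogen (21.2%), and highest at 31 nt in each library, with 44.6%, 45.0% and 38.2%. Without the 10 most-read families the share at 31 nt was 24.6%, 23.1% and 26.2%, a removal on the U-first side that can only lower it. With the 10 most-read families of the other first bases left out as well, it was 25.5%, 24.3% and 27.5%. Over distinct tags it stayed between 25.02% and 27.6% in anagen, 24.6% and 26.7% in catagen, and 27.1% and 30.1% in telogen.

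The lengths with the highest U-first level differed between the libraries. The level ran from 6727 RPM at 27 nt to 11264 at 31 nt in anagen. In catagen it ran from 7284 at 29 nt to 10353 at 30 nt. In telogen the level was highest at 26 nt (13617), with a lower one at each longer length, down to 5741 at 31 nt.

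A at position 10 was barely more frequent in U-first tags than in tags of another first base. Over distinct tags, A stood at position 10 in 26.5% of the U-first tags of anagen (26.2 to 26.7), 27.2% of those of catagen (26.9 to 27.4) and 27.1% of those of telogen (26.9 to 27.3). With another first base it was 26.2%, 26.7% and 26.4%. The difference was 0.49 ± 0.24 percentage points (SD, n = 3 libraries) and above 0 in each library, and an exact sign-flip permutation test gave p = 0.25 (two-sided), the smallest value that 3 libraries allow.

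The position lay within the range of its neighbours in anagen and catagen and barely above it in telogen (27.09%). Positions 8, 9, 11 and 12 of U-first tags held 24.8 to 27.6% A in anagen, between 25.6 and 27.5% in catagen and between 25.6 and 27.05% in telogen. Among positions 3 to 26, position 10 ranked 13, 6 and 3 of 24 for A in the 3 libraries. By the other first bases, A at position 10 was most frequent after a first A, with 29.5%, 29.9% and 29.7%, which is above the U-first value in each library. By length, U-first tags had the higher share of A at position 10 in 3 of the 6 lengths in anagen and in 4 of 6 in catagen and telogen.

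Weighted by reads, the difference turned the other way. A stood at position 10 in 16.02%, 16.9% and 21.4% of the U-first reads of the 3 libraries, against 26.4%, 28.03% and 26.9% of the reads with another first base. The U-first share was the lower one at all 6 lengths in each library. Without the 10 most-read families it was 23.95%, 25.6% and 25.2%, against 26.7%, 26.9% and 26.7% of the reads with another first base when their 10 most-read families were left out too. Without tags that match a miRNA, distinct tags gave a difference of 0.02 percentage points, and tags with 10 or more reads gave -0.53. In place of A, the U-first reads, with all families kept, carried T at position 10 in 40.5%, 35.3% and 31.4% of cases. Over distinct U-first tags T stood there in 26.5%, 25.8% and 26.4%.

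Position 2 deviated further from even use than position 10. Distinct U-first tags carried G there in 33.0%, 34.0% and 34.6% of cases over the 3 libraries, and A in 18.9%, 17.5% and 17.3%. With another first base, position 2 held 27.2%, 27.6% and 26.2% G and 28.2%, 27.3% and 27.9% A. Over reads the order at position 2 of U-first tags was another one, with 49.5%, 50.6% and 33.4% C, 22.5%, 24.4% and 33.1% G and 14.7%, 12.2% and 15.9% A.

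Overlaps of 10 bases between the 5′ ends of opposite strands were rare. For tags with 10 or more reads, it was asked whether any such tag of 26 to 31 nt starts with the reverse complement of exactly their first 8 to 14 bases. The tag itself was not left out. A start of 8 or 10 bases can be its own reverse complement and one of 9 or 11 cannot, so self-matches could add to the former alone. With 10 bases this held for 20 of 4263 U-first tags in anagen (0.469%), 61 of 4531 in catagen (1.35%) and 69 of 6676 in telogen (1.03%). With 8 bases it held for 7.58%, 8.67% and 11.1%, and with 9 bases for 2.42%, 1.79% and 3.51%. With 11 bases it held for 0.117%, 0 of 4531 and 0.150%. Only letters were matched, without genome positions, and unrelated tags match less often the longer the stretch. The fall from 9 to 10 bases thus cannot tell whether ping-pong pairs were present. Tags of another first base had a partner at 10 bases in 0.972%, 1.20% and 1.80%.

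The tags with such a partner shared few starts. They came from 7 different starts in anagen, 6 in catagen and 17 in telogen. In catagen 48 of the 61 tags, and in telogen 32 of the 69, shared a single start. Other starts, such as tttaattaaa and taactagtta, were their own reverse complement, so that a tag was paired with its own start. The count at 10 bases was thus mostly that of a single start in catagen.

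A single base was read in 2 ways, in shares that differed between the libraries. Families 5 and 7 are versions of 1 sequence, with Family 5 starting 2 bases later, and in both the same A was often read as C. The leading tags are shown with either base in capitals, and a substitution is named by the base of the leading tag, its position from the 5′ end and the base read.
A at position 6: ttggaAcaatgtaggtaagggaagtcg
C at position 6: ttggaCcaatgtaggtaagggaagtcg
A at position 8: tgttggaAcaatgtaggtaagggaagtcg
C at position 8: tgttggaCcaatgtaggtaagggaagtcg

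The C form of Family 5 (A6C) held 19.4% of 9518 reads in anagen (18.6 to 20.2), 15.5% of 12482 in catagen (14.9 to 16.2) and 32.0% of 33435 in telogen (31.5 to 32.5). At the same base of Family 7 (A8C) it held 9.76% of 7500 reads, 6.52% of 8048 and 18.3% of 23510. In a version that starts 1 base after Family 5, the same base (A5C) was C in 19.7%, 15.3% and 32.8%. The order was the same in the 3 versions, lowest in catagen and highest in telogen, and the intervals did not overlap. At this base, G alone made up at most 0.161% and T alone at most 0.122% of the reads in any version and library. The median over the 822 single substitutions of the leading tags of the 10 most-read families was 0.0223%, 0.00956% and 0.0189%. The 3 versions are overlapping pieces of 1 sequence in the same libraries and are not replicates of each other.

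The abundant families shown fell into a few orders of the stages. Family 1 had 1553 RPM in anagen, 896 in catagen and 2195 in telogen. Family 2 had 1398, 522 and 800, and Family 3 had 923, 350 and 893. Catagen was the lowest library for all 3 of them, while telogen was the highest for Family 1 and anagen for Families 2 and 3. Family 4 had 435, 590 and 1015 RPM, Family 5 had 479, 582 and 842, and Family 7 had 423, 415 and 710. These 3 were highest in telogen, and Families 4 and 5 were lowest in anagen, whereas Family 7 had nearly the same level in anagen and catagen. Family 6 had 439, 728 and 683 RPM and was the most sharply cut of the 7, since 98.3%, 98.7% and 98.8% of its reads at any length were 26 nt long. Family 4 was the least so, with no length above 14.3% in any library.

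Families were compared between pairs of libraries with the exact test of Audic and Claverie on the reads of 2 libraries, which was the test of the study and compares libraries, not stages. The call required a log2 ratio beyond 1 in either direction with a p below 0.01, among families with 1 or more RPM in either library. There were 305902 U-first families of 1078604 in all, and the families tested held between 83.5% and 88.1% of the U-first reads of a library. No p-value is printed for a single family, since reads of 1 library per stage do not measure the spread between samples.

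Between anagen and catagen, 680 of 1896 U-first families were called (35.9%), beside 38.4% of the families of every first base. Of the U-first families 19.8% were called higher in anagen (375 families, beside 20.7% of all families) and 16.1% lower (305 families, beside 17.7%). The shares were thus close to those of all families. The median log2 ratio was 0.04 over the U-first families and -0.07 over all families tested.

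More U-first families were lower than higher in anagen and catagen against telogen, as were families of every first base. For anagen over telogen, 817 of 2072 were called (39.4%, beside 35.1% of all families), with 255 higher in anagen (12.3%, beside 11%) and 562 lower (27.1%, beside 24.1%). For catagen over telogen, 667 of 1974 were called (33.8%, beside 29.3%), with 154 higher in catagen (7.80%, beside 6.47%) and 513 lower (25.99%, beside 22.9%). The median log2 ratio of U-first families was -0.50 and -0.51, and that of all families -0.45 and -0.37.

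The balance of higher and lower calls depended on the scaling. Scaled to the reads of 26 to 31 nt, which moved every ratio to telogen by about 0.3 on the log2 scale (the median of all families became -0.14 and -0.06), 334 U-first families were higher and 376 lower in anagen than in telogen, and 231 were higher and 313 lower in catagen. These were 34.3% and 27.6% of the U-first families, beside 30.8% and 25.3% of all families. The share of higher calls thus went from 31.2% to 47.0% and from 23.1% to 42.5%. With size factors from the median of ratios it was 38.1% and 33.3%. With edgeR's exact test at an assumed coefficient of biological variation of 0.4, 123, 208 and 126 U-first families were called in the 3 pairs, or 6.49%, 10.04% and 6.38%, beside 8.49%, 7.51% and 5.62% of all families.

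Among the 7 abundant families shown, 2 were called between anagen and catagen, both higher in anagen, namely Family 2 (log2 1.42, 1.39 to 1.45) and Family 3 (1.40, 1.36 to 1.44). Against telogen, anagen was called lower for Family 4 (-1.22). In catagen, Family 1 (-1.29) and Family 3 (-1.35) were called lower than in telogen. Scaled to the reads of 26 to 31 nt, Family 4 came to -0.92 and Family 1 to -0.98 and were no longer called. Over reads of every length with the same first 18 bases, the ratio of Family 1 between catagen and telogen was -0.97.

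Of the families with the largest called ratios of a pair and at least 100 reads in both libraries, 6 are given. They are shown because they differed most between the libraries, again with the first base and position 10 in capitals.
Family 8: TgactggctCagcgtgtgcctaccctac
Family 9: TacggcagcGccgcgggagcctcggtc
Family 10: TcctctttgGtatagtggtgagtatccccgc
Family 11: TgaaggtgaAggccgccctcagccgg
Family 12: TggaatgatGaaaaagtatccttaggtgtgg
Family 13: TgtggcggcCaagcgttcatagcgac

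Family 12 was read mostly in telogen. Its reads numbered 20 for anagen, 297 for catagen and 6450 for telogen, or 1.25 (0.764 to 1.93), 16.4 (14.6 to 18.4) and 239 (233 to 245) RPM. The log2 ratio was -3.86 for catagen over telogen (-4.04 to -3.70) and -7.58 for anagen over telogen (-8.29 to -6.95), a 191-fold difference. In telogen 94.5% of its reads at any length were 31 nt long, at the upper edge of the window. Family 9 ran the same way, with 13.2, 82.9 and 121 RPM and a log2 ratio of -3.19 for anagen over telogen (-3.40 to -2.99). Family 11 had that order too, with 13.3, 57.3 and 98.2 RPM and a ratio of -2.88 for anagen over telogen (-3.09 to -2.68). Its ratio of catagen over telogen (-0.78) was not called. All 3 were lowest in anagen, and Families 9, 11 and 12 were also called lower in anagen than in catagen (-2.65, -2.10 and -3.71).

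Families 8 and 13 were lowest in catagen. Family 8 had 76.3, 11.5 and 58.3 RPM, with a ratio of 2.72 for anagen over catagen (2.51 to 2.94). Family 13 had 26.2, 12.8 and 81.1, with a ratio of -2.67 for catagen over telogen (-2.87 to -2.47). Its ratio of anagen over catagen, 1.04, came to 0.997 with size factors and was then not called, and it was 0.69 over reads of every length. Family 10 was highest in anagen, with 36.1, 6.85 and 13.7 RPM and a ratio of 2.40 over catagen (2.12 to 2.69), and its call between catagen and telogen (-1.004) was lost with either other scaling (-0.69 and -0.83). Its reads ran past the upper edge of the window, with 28.2%, 47.3% and 15.5% of those at any length longer than 31 nt. Over every length its ratio was 1.77 for anagen over catagen and -0.17 for catagen over telogen.

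Over the 13 families shown, 2 had A at position 10.

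The letters of the tags were then searched for features of some other RNA classes, but not for rRNA sequences. The paper counts a share of its reads as rRNA, and how far the families shown are rRNA was not tested. The A box and the B box are the internal promoter elements of genes that RNA polymerase III transcribes, such as tRNA genes. A match in a tag is a match of letters on the strand that was read, and not a promoter site. Of the U-first reads of anagen, catagen and telogen, 27.8%, 30.7% and 8.64% held the letters of an A box, against 3.59%, 3.16% and 3.69% of the reads with another first base. Most of this difference rested on the 10 most-read families, since without them 3.25%, 2.44% and 1.60% of the U-first reads held these letters. With the 10 most-read families of the other first bases left out in the same way, 2.93%, 1.99% and 1.22% of their reads did. The leading tags of Families 1 to 7 did not hold the letters of an A box. The matches lost with the 10 most-read U-first families thus lay in those of the 10 that are not shown. Over distinct tags the shares were 2.38%, 1.51% and 1.04%, against 1.48%, 1.08% and 0.812%. The B box, with the letters GTTCNANNC, was less frequent in U-first reads (0.367%, 0.3998% and 0.529%) than in reads with another first base (0.766%, 0.644% and 0.732%).

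CCA is added to the 3′ end of mature tRNAs after transcription. Tags ending in CCA held 1.93%, 2.88% and 2.33% of the U-first reads, less than the 3.62%, 4.55% and 2.91% of the reads with another first base. U-first reads ending in CCA had levels of 1016, 1483 and 1318 RPM, and 47.0%, 52.0% and 51.2% of them were 27 nt long. Anagen over catagen gave a log2 ratio of -0.55 (-0.57 to -0.52) and anagen over telogen one of -0.38 (-0.40 to -0.35).

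The 3 most-read families ending in CCA came from 2 sequences. They are shown because the base at position 9, in capitals, was read as each of the 4 letters.
Sequence 1 with T: tcggttcgTatccgagtcacggcacca
Sequence 1 with A: tcggttcgAatccgagtcacggcacca
Sequence 1 with G: tcggttcgGatccgagtcacggcacca
Sequence 1 with C: tcggttcgCatccgagtcacggcacca
Sequence 2 with T: tgggttcgTgccccacgttgggcgcca
Sequence 2 with G: tgggttcgGgccccacgttgggcgcca
Sequence 2 with A: tgggttcgAgccccacgttgggcgcca
Sequence 2 with C: tgggttcgCgccccacgttgggcgcca

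In tags ending in CCA that match sequence 1 around this base, T made up 58.9% of 2179 reads in anagen, 57.0% of 3206 in catagen and 58.8% of 4838 in telogen. A made up 20.8% (19.1 to 22.5), 22.2% (20.8 to 23.7) and 21.7% (20.5 to 22.9), G 16.4%, 16.6% and 15.5%, and C 3.95%, 4.15% and 4.05%. The intervals of A overlapped between all 3 libraries. In sequence 2, T held 52.1%, 49.1% and 48.5%, G 38.7%, 42.3% and 43.5%, A 8.33%, 7.52% and 6.97%, and C 0.909%, 1.09% and 0.952% of 1980, 4868 and 4937 reads. The mixture of bases was thus different in the 2 sequences and nearly the same in the 3 libraries. As background, mature tRNAs often carry a methylated A after GTTCG, which reverse transcriptases can misread, and its part here was not tested. In the letters of the B box this base is an A, so that tags with another base there did not count as B box matches. Over all U-first tags ending in CCA that hold GTTCG, A followed it in 15.1%, 14.5% and 15.4% of the reads, against 9.72%, 12.4% and 14.01% with another first base.

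Few members matched a miRNA. Tags whose first 18 bases equal those of a tag that the study lists as a miRNA, or that lie within a listed miRNA hairpin, held 0.954%, 0.931% and 0.967% of the U-first reads, against 0.258%, 0.279% and 0.236% with another first base. The 4 most-read families of this kind are shown, because U is also the usual first base of miRNAs.
let-7b: tgaggtagtaggttgtgtggtttttt
let-7a or let-7c: tgaggtagtaggttgtatagttgtag
mir-146: tgagaactgaattccataggctgtat
mir-182: tttggcaatggtagaactcacactgg

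The let-7b family of 26 to 31 nt had 219, 182 and 189 RPM in anagen, catagen and telogen. This was 0.226%, 0.227% and 0.235% of the reads with the same first 18 bases at any length. The mir-146 family had 131, 137 and 157 RPM, which was 9.33%, 8.27% and 7.88% of its reads at any length. The mir-182 family had 23.1, 24.5 and 25.9, and 52.3%, 58.3% and 54.3% of its reads at any length lay in the window. The family that starts as let-7a and let-7c had 27.7, 16.6 and 35.8 RPM, which was 0.0177%, 0.0140% and 0.0323% of its reads at any length. Its log2 ratio of catagen over telogen was -1.11 (-1.30 to -0.92), which met the call but came to -0.79 when scaled to the reads of 26 to 31 nt, and no other pair of libraries met it for any of the 4 families. Runs of 8 or more of a single base were found in at most 0.0735% of the U-first reads of a library.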

How the data were processed

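Small RNA libraries from the pooled skin RNA of 10 goats were sequenced once per hair cycle stage. The authors discarded low-quality reads, adapter contaminants, reads lacking an insert or 3′ adapter, poly(A) reads and those shorter than 18 nt, and collapsed identical reads, and they deposited counts of reads per tag without normalisation or alignment. Program versions for these steps are not given in the sources used here. No further correction of read errors was made here, so a tag read once can be an error of an abundant one.

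Tags of 26 to 31 nt were selected by first base, and their genomic positions and genes were not analysed here. The members, lists and features were chosen with earlier results of these data known. Families joined tags with the same first 18 bases. The families named were the 10 with the highest mean level and, for each pair, the 3 called families with the largest absolute log2 ratio where each library of the pair had 100 or more reads. One abundant sequence and its close relatives are not reported here. The base read as A or C and the base after GTTCG were chosen after their values were seen. A value of 0 was set to 0.01 RPM for ratios. The A box was searched on the read strand with its standard consensus. miRNA matches used a shortened copy of the study's list (2697 tags, 868 different starts of 18 bases and 111 hairpins), so matched shares are lower limits. With 1 library per stage there was no quasi-likelihood fit. Python 3.11.15, pandas 2.3.3, numpy 2.4.6, scipy 1.17.1, R 4.3.3 and edgeR 4.0.16 were used. The calls were tested on simulated reads with counting error alone, the error that the test assumes. This cannot show how many calls come from the spread between samples. The alternatives were other denominators, size factors, minimum reads, length windows, family definitions and tests.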

Additional observations from a re-analysis of the deposited data

How the results depend on the processing

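With 1 library per stage, no library could be left out within a stage, and no paired analysis was possible because each stage has a single library. The log2 ratios of the U-first level for anagen against catagen, anagen against telogen and catagen against telogen (0.027, -0.11 and -0.14) became 0.015, 0.19 and 0.18 when scaled to the reads of 26 to 31 nt, so that both ratios to telogen reversed. They became 0.12, -0.29 and -0.41 when scaled to the reads of 22 nt and 0.047, -0.15 and -0.19 to those of 18 to 25 nt. Distinct tags as a share of all distinct tags gave -0.051, -0.35 and -0.30, and 27 to 30 nt gave -0.014, -0.18 and -0.17, both reversing the first ratio. Lengths of 24 to 31 nt gave 0.019, -0.22 and -0.24, leaving out tags read once gave 0.018, -0.087 and -0.11 and leaving out the 10 most-read families gave 0.040, -0.44 and -0.48. Tags that match a miRNA changed none of the 3 beyond their intervals.

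The log2 ratios of the number of distinct U-first tags were -0.068, -1.02 and -0.96. At equal depth (15997828 reads, which leaves 116116, 109792 and 152922 tags) they were 0.081, -0.40 and -0.48, so that the first reversed. With 2 or more reads they were -0.036, -1.04 and -1.0035, and with 10 or more -0.088, -0.65 and -0.56. Of these alternatives, equal depth moved both ratios to telogen the most.

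The difference in A at position 10 (0.49 percentage points) was -8.99 over reads and -0.53 over tags with 10 or more reads, both reversed, 0.23 with 2 or more reads, 0.021 without miRNA matches and 1.26 at 24 to 31 nt. Over reads without the 10 most-read families, chosen after seeing the data, it was -2.20, and -1.84 with the 10 most-read families of the other first bases left out too, both reversed. It moved by less than 1 SD with 1 vote per family, at 27 to 30 nt and without the 10 families over distinct tags. The exact permutation p was 0.25 at 24 to 31 nt, 0.75 with either read minimum and 1 without miRNA matches.

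The numbers of U-first families called (680, 817 and 667) were 1047, 1423 and 1131 with no minimum (0.674%, 0.591% and 0.464% of those tested, beside 0.806%, 0.595% and 0.462% of all families). At 5 or more RPM they were 274, 270 and 254 (37.6%, 34.3% and 32.9%, beside 39.8%, 31.01% and 27.7%), and with single tags 1867, 1761 and 1595 (49.3%, 44.4% and 41.6%, beside 48.7%, 41.4% and 36.9%). With edgeR's exact test at an assumed variation of 0.4 they were 123, 208 and 126. Without a limit on the ratio, catagen over telogen had 1070 (54.2%, beside 51.4%). Both other scalings, families by 22 bases, Fisher's exact test and Benjamini-Hochberg adjustment stayed within 1.5 times. Of 78 ratios of named families under another scaling, 72 kept their call or lack of one, 5 lost it and 1 gained it (Family 2, anagen over telogen, 1.11 when scaled to the reads of 26 to 31 nt).

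Differences in features (U-first minus another first base, mean over libraries, in percentage points) were, over distinct tags, reads and tags with 2 or more reads, 0.83, 0.69 and 1.39 for miRNA matches, -0.19, -1.32 and -0.30 for CCA, 0.52, 18.9 and 1.88 for the A box and -0.16, -0.28 and -0.25 for the B box. Over reads without the 10 most-read families, chosen after seeing the data, the A box gave -1.05, which is reversed, and the mean share of U at 31 nt went from 42.6% to 24.7%. Both removals touched U-first reads alone, and with the 10 most-read families of the other first bases left out as well the values were 0.39 and 25.7%. For runs of 8 they were 0.057, 0.0092 and -0.0094, the last reversed.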
